A study of Homo sapiens
Mus musculus with 8 samples.

Results

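The costimulatory and checkpoint receptors of T cells were followed in 4 lymphocyte cell lines that had been mixed and captured together. The 10 genes were chosen by name: 6 human genes (CD28, ICOS, CTLA4, LAG3, HAVCR2 and TIGIT) and 4 mouse genes (Cd28, Pdcd1, Lag3 and Ctla4), of 60736 genes counted (32738 human, 27998 mouse). The mouse lines were EL4, of CD4+ T cell origin, and IVA12, of B cell origin. The human lines were both T cells, Jurkat being CD4+ and TALL-104 a smaller CD8+ line grown with interleukin-2. No agent was compared: every library held all 4 lines, mixed in equal numbers of viable cells. Libraries were made with 10x Genomics Chromium kits, which tag each messenger RNA molecule with a unique molecular identifier (UMI) at its 3′ end (3′ v2 and 3′ v3) or its 5′ end (5′ v1). The 3′ v3 kit gave 4 libraries, the 5′ v1 kit 2 and the 3′ v2 kit 1; the other 3′ v2 library was not analysed here. No label says that libraries came from separate cultures, so p-values measure the spread between libraries, which may be technical.

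CD28 is the receptor through which T cells take the second signal for activation, by binding CD80 and CD86 on antigen-presenting cells, and ICOS is a related receptor that appears after activation. CTLA4 takes the same ligands from CD28 and restrains the cell. The products of PDCD1, LAG3, HAVCR2 and TIGIT are inhibitory receptors, often called checkpoints, that are induced on stimulated T cells and stay high on T cells exposed to antigen for long.

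Cells were told apart by genes outside this set. Of 32377 barcodes with at least 1000 UMIs, 27505 were assigned: 10905 EL4, 5829 IVA12, 8105 Jurkat and 2666 TALL-104. Barcodes with both species (2347) and those between the limits (1451 mouse, 1074 human) were left out, and no doublet caller was run, so doublets within a species remained. Of the 2666 TALL-104 cells, 784 had marker shares of 0.1% to 0.2%, just inside the limit. Counts were summed per library and line and given as counts per 1000000 UMIs of the species (CPM). Library totals ranged from 24790710 to 251164949 UMIs. Median UMIs per cell ran from 22812 to 27968.5 in EL4, 10896 to 31126 in IVA12, 10075 to 18522 in Jurkat and 1929 to 2761.5 in TALL-104. No 2 libraries shared more than 24 cell barcodes.

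The lines largely carried the markers of their labels. EL4 held all 7 T cell markers at a summed 1371 to 1898 CPM, against 16.7 to 52.7 CPM in IVA12. IVA12 held Cd79b, Ms4a1, Cd74 and Ebf1, but Blk had no UMI in it and Cd79a averaged 0.240 CPM, so its B cell label rested on part of the list. Pax5 and Cd22, also B cell genes, were higher in EL4. TALL-104 had a summed 1460 to 2712 CPM of cytotoxic genes against 34.9 to 119.9 CPM in Jurkat, although CD8B averaged 1.38 CPM there and 5.88 CPM in Jurkat. CD4 averaged 1.75 CPM in Jurkat. The myeloid list was low in EL4, IVA12 and Jurkat except for Fcer1g (48.9 CPM) in EL4 and CST3 (63.8 CPM) in Jurkat, and in TALL-104 it was carried by FCER1G (384 CPM) and TYROBP (69.6 CPM), adaptors that NK and other cytotoxic cells also use, with LYZ at 0.

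In the 2 mouse lines Cd28 and Pdcd1 were T cell genes of EL4. In the human lines the receptors split: CD28 marked Jurkat, and ICOS and HAVCR2 marked TALL-104. LAG3, CTLA4 and TIGIT and their mouse counterparts gave at most 28 UMIs in a line over all libraries, except Tigit in EL4, with 52 and 24 UMIs in the 5′ v1 libraries.

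**Figure D1:**
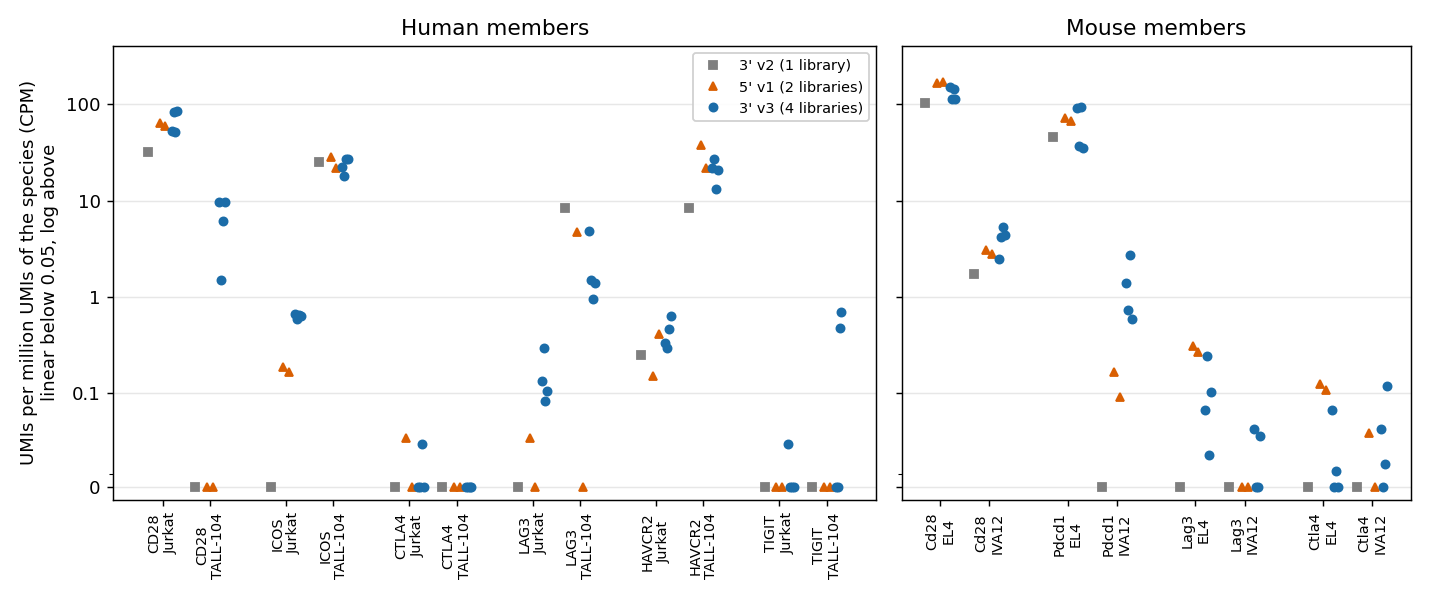
Level of each receptor gene in each line and library, as CPM, on an axis that is linear below 0.05 and logarithmic above; squares are 3′ v2, triangles 5′ v1 and circles 3′ v3. CD28, ICOS, HAVCR2, Cd28 and Pdcd1 separate the lines of their species in the pooled libraries, and CTLA4, TIGIT and Ctla4 stay under 1 CPM wherever they were seen.

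Cd28 was measured in EL4 in every library. It reached 101 CPM in the 3′ v2 library, 167 and 168 CPM in the 5′ v1 libraries and 150.1, 114, 143 and 114 CPM in the 3′ v3 libraries (replicates 1 to 4). In IVA12 it ran from 1.73 to 5.29 CPM with a median of 3.05 CPM. The lowest EL4 library was far above the highest IVA12 library, so the lines did not overlap. Cd28 was 41.5-fold higher in EL4, a log2 fold change of 5.38 ± 0.22 (SE, edgeR quasi-likelihood test over 7 libraries with the library as a block, Benjamini-Hochberg adjusted p = 1.69e-08).

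CD28 in Jurkat was 32.1 CPM in the 3′ v2 library, 63.1 and 59.7 CPM in the 5′ v1 libraries and 52.0, 82.3, 50.7 and 84.4 CPM in the 3′ v3 libraries. In TALL-104 it had no UMI in the 3′ v2 and 5′ v1 libraries and 9.62, 1.5, 6.17 and 9.72 CPM with 3′ v3, from 40 UMIs in all. In 3′ v3 replicate 1, 5 of the 12 UMIs lay in 2 cells of at least 10000 UMIs, and the other 635 cells had 5.74 CPM. The TALL-104 sums that read 0 were small: 3 UMIs in them would have been 24.9, 14.2 and 32.5 CPM, so a level below those could have gone unseen there. No measured TALL-104 level reached the lowest Jurkat library, although the last of those limits, for 5′ v1 replicate 2, lies above it. CD28 was 8.58-fold lower in TALL-104 (log2 fold change -3.10 ± 0.26, edgeR adjusted p = 1.42e-10). With cells of over 95% UMIs from 1 species the log2 fold change was -3.91, but that limit kept 147 of 637, 237 of 243 and 146 of 595 TALL-104 cells in 3′ v3 replicates 1, 2 and 4, and replicate 3, with 3 of 1050 cells left, dropped out of the TALL-104 sums.

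ICOS, the inducible relative of CD28, had the opposite pattern. In TALL-104 it was 24.9 CPM in the 3′ v2 library, 28.3 and 21.7 CPM with 5′ v1 and 22.5, 18.0, 27.1 and 27.1 CPM with 3′ v3, from 147 UMIs. The 3′ v2 and 5′ v1 values rest on 3, 6 and 2 UMIs, the last below the 3 UMIs (32.5 CPM) taken as the limit. In Jurkat it ran from 0 to 0.673 CPM, with a median of 0.590 CPM. No library overlapped. ICOS was 53.0-fold higher in TALL-104 (log2 fold change 5.73 ± 0.32, edgeR adjusted p = 3.30e-14). Its mouse counterpart Icos had 0 UMIs in IVA12 and at most 0.188 CPM in EL4.

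Of the checkpoint genes, Pdcd1, which encodes PD1, was plentiful in EL4 alone of the mouse lines. EL4 had 45.5 CPM in the 3′ v2 library, 71.0 and 67.1 CPM with 5′ v1 and 91.6, 36.8, 94.0 and 34.6 CPM with 3′ v3. IVA12 had 0 to 2.73 CPM with a median of 0.598 CPM. Pdcd1 was 76.8-fold higher in EL4 (log2 fold change 6.26 ± 0.39, edgeR adjusted p = 1.56e-07), and 5.26 on the log2 scale when every cell was thinned to 1000 UMIs and 6.85 with DESeq2. In the human lines PDCD1 was seen at no more than 0.413 CPM in Jurkat and as 1 UMI in TALL-104.

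HAVCR2 encodes TIM3, an inhibitory receptor of cytotoxic T cells and of myeloid cells. TALL-104 had 8.29 CPM (1 UMI, in its only cell there of at least 10000 UMIs) in the 3′ v2 library, 37.8 and 21.7 CPM (8 and 2 UMIs) with 5′ v1 and 21.7, 27.0, 13.3 and 20.8 CPM with 3′ v3. Jurkat had 0.152 to 0.640 CPM with a median of 0.336 CPM. The measured levels of the lines did not overlap, although the single UMI in 3′ v2 has an exact 95% Poisson interval of 0.210 to 46.2 CPM, which reaches into the Jurkat range. HAVCR2 was 55.2-fold higher in TALL-104 (log2 fold change 5.79 ± 0.35, edgeR adjusted p = 1.77e-13), or 6.46 on the log2 scale in cells of over 95% UMIs from 1 species, again without the TALL-104 sum of 3′ v3 replicate 3. In EL4 the mouse counterpart Havcr2 ran from 0.170 to 1.69 CPM.

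Of the 10 genes, 5 passed the filter on low counts for the comparison of lines. A gene of low level passes it through the line in which it is high, so the count of differing genes among those 5 carries no weight by itself. All 5 passed the test. Among all mouse genes tested 77% of 11734 differed between EL4 and IVA12, and among all human genes 65.2% of 10228 differed between TALL-104 and Jurkat, so a difference of either sign was the common outcome.

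LAG3, Lag3, CTLA4, Ctla4 and TIGIT did not pass. LAG3, a receptor for MHC class II, gave 13 UMIs in TALL-104 (pooled 2.21 CPM, 0 to 8.29 CPM by library) and 12 UMIs in Jurkat (pooled 0.0831 CPM, 0 to 0.295 CPM). With no filter on low counts its log2 fold change was 4.37 ± 0.78 (edgeR adjusted p = 6.18e-07). Lag3 gave 28 UMIs in EL4 (at most 0.314 CPM) and 2 in IVA12, with a log2 fold change of 2.90 ± 0.86 (edgeR adjusted p = 0.0102) without the filter.

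CTLA4 and TIGIT were barely seen. CTLA4 had 3 UMIs in 8105 Jurkat cells and 0 in 2666 TALL-104 cells, and 3 UMIs over all TALL-104 sums would have been 0.510 CPM. TIGIT, which competes for the ligand of CD226, had 1 UMI in Jurkat and 2 in TALL-104. Ctla4 had 10 UMIs in EL4 (0.0412 CPM pooled) and 6 in IVA12 (0.0391 CPM pooled). The mouse gene Tigit was seen mainly with 5′ v1 in EL4, at 1.63 and 1.3 CPM against 0.0517 to 0.284 CPM with 3′ v3. Without the filter, edgeR adjusted p was 0.851 for CTLA4, 0.0536 for TIGIT and 0.899 for Ctla4 between lines. A true level below these limits could not be told from absence at this depth.

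Cd28 and Pdcd1 were each found in most EL4 cells. Cd28 was found in 65.4% to 91.0% of EL4 cells by library (median 84.7%) and Pdcd1 in 50.2% to 69.4% (median 61.1%). The lowest Cd28 share was in 3′ v3 replicate 3, where 3021 of 4136 EL4 cells had at least 2000 UMIs. The highest was in 5′ v1 replicate 2, where 720 of 726 did. In Jurkat, CD28 was found in 32.2% to 58.8% of cells (median 54.8%). In TALL-104, ICOS was found in 4.40% to 8.57% of cells (median 6.22%) and HAVCR2 in 2.44% to 10.0% (median 4.87%). Median depth per cell was at most 2761.5 UMIs in TALL-104 and at least 22812 in EL4, and shares with all UMIs are not compared between them.

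**Figure D2:**
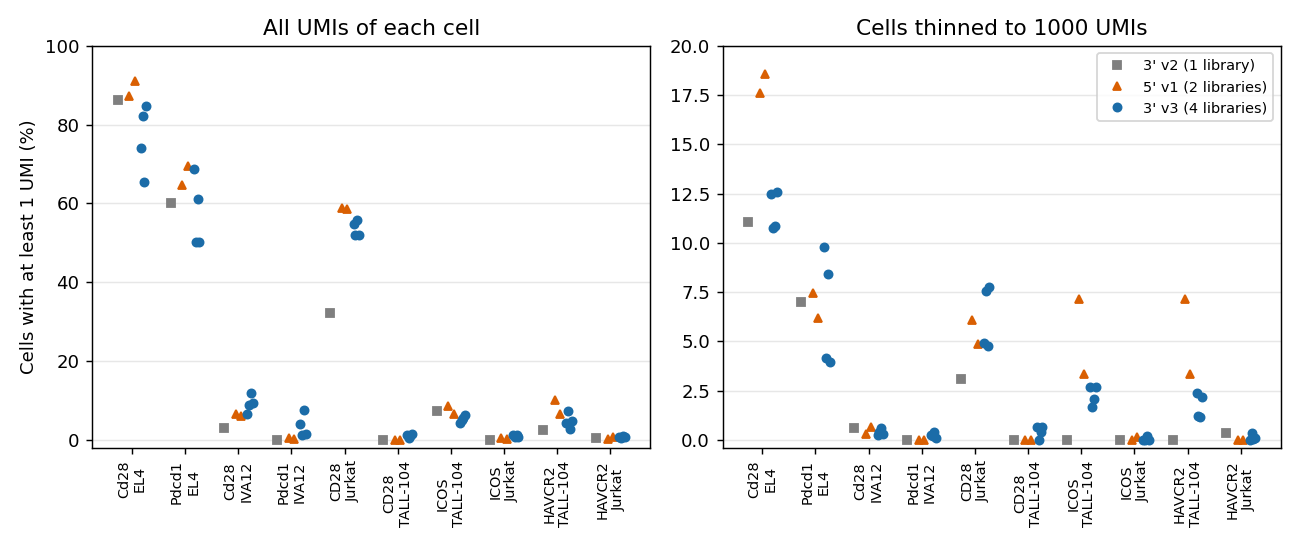
Percent of cells with at least 1 UMI of a receptor gene, by gene and line, 1 point per library, with all UMIs of each cell (left) and after thinning each cell to 1000 UMIs (right; the axis ends at 20%). Cd28 in EL4 falls from a median of 84.7% to 12.5% on thinning and ICOS in TALL-104 from 6.22% to 2.67%.

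At 1000 UMIs per cell the shares were 10.8% to 18.6% for Cd28 in EL4, 3.97% to 9.79% for Pdcd1 in EL4 and 3.11% to 7.76% for CD28 in Jurkat. For ICOS and HAVCR2 in TALL-104 they were 0 to 7.14% each, with medians of 2.67% and 2.18%, and 3′ v2 had none of either in 41 cells at this depth, where the exact 95% interval reaches 8.60%, although 3 of these cells held ICOS and 1 held HAVCR2 with all UMIs. The background was read in the cells of the other species, which cannot make the transcript. Jurkat cells had a Cd28 UMI in 0.286% to 3.8% of cells and a Pdcd1 UMI in 0.0716% to 4.62%. EL4 cells had a CD28 UMI in 0 to 2.20% of cells, an ICOS UMI in 0 to 0.338% and a HAVCR2 UMI in 0 to 0.404%. With all UMIs, the share of each gene in its high line exceeded the share of the same gene in these cells of the other species.

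In the low lines the shares came down to that background in part. Pdcd1 was found in 0 to 7.54% of IVA12 cells, above its share in Jurkat cells in 6 of 7 libraries, although IVA12 cells were the deeper in 6 of 7. CD28 was found in 0 to 1.51% of TALL-104 cells. This was above its share in IVA12 cells of the same library in 3′ v3 replicate 1 (1.26% against 0.519%) and in no other library, although IVA12 cells are far deeper. Cd28 in IVA12 cells (3.01% to 11.9%) was above its share in Jurkat cells of the same library in all 7 libraries. ICOS in Jurkat cells (0 to 1.24%) was above its share in EL4 cells in 6 of 7 libraries, and HAVCR2 in Jurkat cells (0.286% to 0.917%) likewise in 7 of 7.

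Cd28 and Pdcd1 were often in the same EL4 cell. Both were found in 45.4% to 65.7% of EL4 cells (median 55.4%), and in under 50% of them in 3′ v3 replicates 2 and 4. After thinning, 130 cells held both, where 103 would be found if the genes were drawn independently within each library. The count was above that number in 4 of 7 libraries and below it in 3, namely 3′ v3 replicates 2 and 4 and 5′ v1 replicate 2. None of the other pairs was found together in more than 1 thinned cell.

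The RNA of broken cells, free in the suspension, adds counts to every droplet. Its size was estimated in each library from the other species: the UMIs of the other species in a line were multiplied by the ratio of the member's UMIs to the other species' UMIs in barcodes of under 100 UMIs. For the high lines the estimate was small, 1.81% of the Cd28 UMIs of EL4, 1.61% of Pdcd1, 0.869% of CD28 in Jurkat, 0.552% of ICOS and 0.0416% of HAVCR2 in TALL-104. The estimate takes all UMIs of the other species as free RNA, and doublets of 2 lines of a species were not told apart from it.

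**Figure D3:**
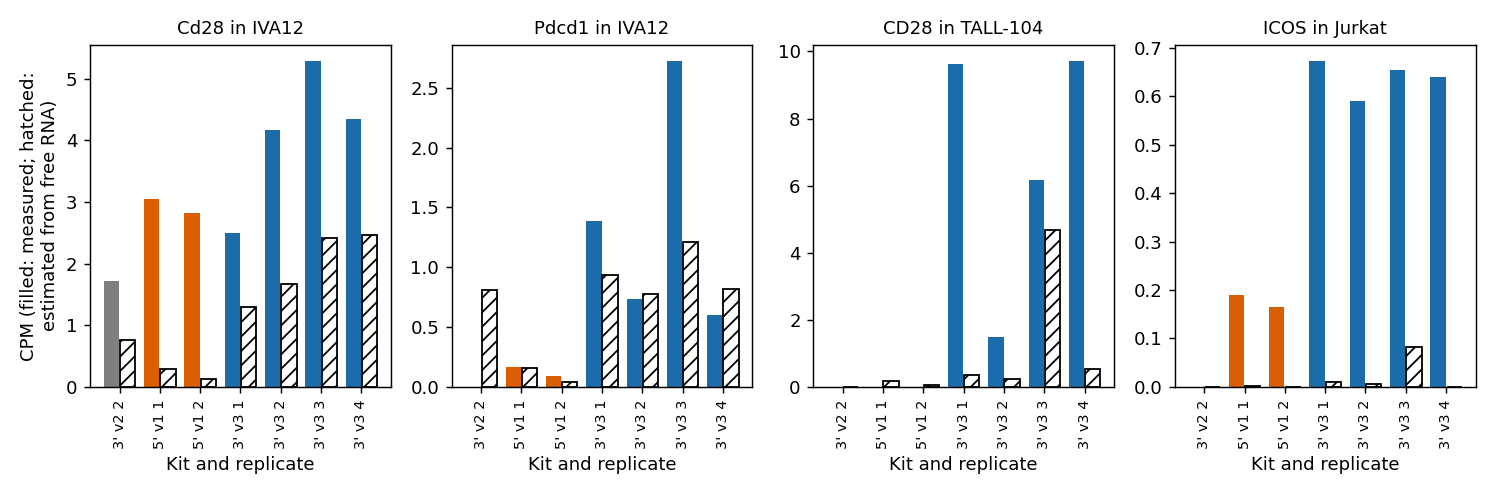
Level of 4 receptor genes in the line where each was low, by kit and replicate, with the measured CPM as filled bars and the CPM estimated from free RNA as hatched bars. For Pdcd1 in IVA12 the estimate exceeds the measured level in 3 of 7 libraries, and for ICOS in Jurkat it amounts to 7.14% of the UMIs.

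In the low lines it differed by gene. Of 212 Pdcd1 UMIs in IVA12, 59.1% were accounted for by the estimate, and in 3 of 7 libraries the estimate exceeded the measured level. For Cd28 in IVA12 it was 41.3% of 620 UMIs over all libraries, but 7.94% of the 104 UMIs with 5′ v1, where IVA12 had 3.05 and 2.82 CPM against estimates of 0.289 and 0.121 CPM. For CD28 in TALL-104 it was 28.1% of 40 UMIs, of which 9.87 of 11.3 estimated UMIs fell in 3′ v3 replicate 3, the library where TALL-104 cells had a median of 15.3% UMIs from mouse. In Jurkat it was 7.14% of the 74 ICOS UMIs and 0.387% of the 55 HAVCR2 UMIs.

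The kits were compared within each line, 4 libraries of 3′ v3 against 2 of 5′ v1. Both 5′ v1 libraries were captures of 1 cell mixture, and the 3′ v3 libraries came from 2 others. Kit and mixture therefore cannot be told apart in the tests of kits. The 3′ v2 library had no replicate and entered no test of kits. Of all genes tested, 36.7% were called between the kits in EL4, 9.66% in IVA12, 17.5% in Jurkat and 4.32% in TALL-104. These shares moved with single libraries: from 4480 genes called in EL4, 1164 in IVA12, 2473 in Jurkat and 386 in TALL-104, the lowest counts with 1 library left out were 1063, 18, 113 and 9, each without a 5′ v1 library, and the highest were 4347, 846, 2156 and 628. Of the receptor genes 2 could be tested in each line, and 1 of those 8 tests was called.

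Cd28 in EL4 averaged 130.1 ± 19.2 CPM (SD, n = 4) with 3′ v3 and 168 ± 0.943 CPM (SD, n = 2) with 5′ v1, and the difference did not pass (log2 fold change -0.40 ± 0.26, edgeR adjusted p = 0.266). Pdcd1 in EL4 and CD28 in Jurkat did not pass either, at -0.08 ± 0.56 (adjusted p = 0.925) and 0.05 ± 0.20 (adjusted p = 0.881). In TALL-104, HAVCR2 was at -0.59 ± 0.53 (adjusted p = 0.559) and ICOS at 0.00498 ± 0.53 (adjusted p = 0.999). The TALL-104 sums with 5′ v1 came from 70 and 30 cells.

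The called gene was ICOS in Jurkat, where it was low. It passed the filter on low counts through the 3′ v3 libraries alone, so the call carries little weight by itself. It was 0.673, 0.590, 0.655 and 0.640 CPM with 3′ v3 and 0.190 and 0.165 CPM with 5′ v1, a 3.55-fold difference (log2 fold change 1.83 ± 0.48, edgeR adjusted p = 0.0405) from 67 and 7 UMIs. The call was lost under 5 of 11 alternatives, among them leaving out 5′ v1 replicate 2 (adjusted p = 0.235). Pdcd1 in IVA12, which entered the test through 3′ v3 in the same way, was not called (3.40 ± 1.03, edgeR adjusted p = 0.0839). Nor was Cd28 in IVA12 (0.51 ± 0.32, edgeR adjusted p = 0.352). The summed T cell markers of IVA12, all 7 with UMIs in both kits, moved with Pdcd1: 22.7 to 52.7 CPM with 3′ v3 and 16.7 to 20.7 CPM with 5′ v1. In Jurkat the summed cytotoxic markers moved with ICOS, at 64.9 to 119.9 CPM with 3′ v3 (8 of 8 with UMIs) and 36.2 to 39.3 CPM with 5′ v1 (6 of 8, GNLY and KLRD1 at 0). Of the 5 cytotoxic markers tested between kits in Jurkat, 1 was higher with 3′ v3 and 4 were not called. GZMA alone was at 43.8 CPM pooled with 3′ v3 and 17.0 CPM with 5′ v1. The part of these marker sums in either result was not tested.

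The difference between EL4 and IVA12 was itself compared between kits, where kit and cell mixture again cannot be told apart. For Pdcd1 it was larger with 5′ v1 by 3.49 ± 0.51 on the log2 scale (edgeR line by kit term, adjusted p = 0.00121), in a test that called 35.6% of all mouse genes. With 5′ v1, EL4 and IVA12 had 69.6 and 0.143 CPM pooled, and with 3′ v3 they had 75.5 and 1.79 CPM. The IVA12 levels rest on 5 UMIs with 5′ v1, of which the free RNA estimate amounts to 85.1%, and on 207 UMIs with 3′ v3, of which it amounts to 57.3%. Of the 7 T cell markers, Cd3d, Cd3e and Thy1 had called terms of the same sign (4.71, 6.49 and 4.08), and Cd5 (1.98), Cd247 (0.36), Cd3g (0.34) and Cd2 (-0.35) were not called; their part in the result was not tested. Over the alternatives the adjusted p for Pdcd1 ran from 2.40e-05 to 0.0571, the latter with cells thinned to 1000 UMIs. For Cd28 the term was 0.95 ± 0.33 (adjusted p = 0.0530, from 0.000533 to 0.303 over the alternatives). For the human lines 1.2% of genes were called, and CD28, HAVCR2 and ICOS were not (adjusted p = 0.380, 0.433 and 0.332). On simulated counts this human term recovered 5% of 2-fold and 51% of 4-fold changes, so changes of that size could be missed.

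The 3′ v3 libraries came from 2 cell mixtures, given as F (replicates 1 and 3) and G (replicates 2 and 4) in the study's sample summary, while 5′ v1 and 3′ v2 came from a mixture each. Within 3′ v3 the levels of some receptors did not overlap between the mixtures. With 2 libraries in each mixture, such separation is often met without any difference. Pdcd1 in EL4 was 91.6 and 94.0 CPM in mixture F and 36.8 and 34.6 CPM in mixture G. Cd28 in EL4 was 150.1 and 143 CPM in F and 114 CPM in both libraries of G. CD28 in Jurkat was ordered the other way, 52.0 and 50.7 CPM in F and 82.3 and 84.4 CPM in G. Pdcd1 in IVA12 (1.39 and 2.73 CPM in F, 0.734 and 0.598 CPM in G) was higher in F. ICOS in Jurkat was 0.673 and 0.655 CPM in F and 0.590 and 0.640 CPM in G, from 2 and 6 UMIs in G. The exact Poisson intervals of the G values, 0.0714 to 2.13 and 0.235 to 1.39 CPM, hold both F values. No difference is read from ICOS. Lag3 in EL4, from 2 to 4 UMIs a library, was higher in G. There the free RNA estimate was 0 of the 4 UMIs in replicate 2 and 3.82 of the 4 in replicate 4. Ctla4 in EL4 had 3 and 1 UMIs in F and 0 in both libraries of G. CD28, ICOS and HAVCR2 in TALL-104, HAVCR2 in Jurkat and Cd28 in IVA12 overlapped. This was seen in the values and is a description, with no test, and the share of all genes that separate in this way was not computed.

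**Figure D4:**
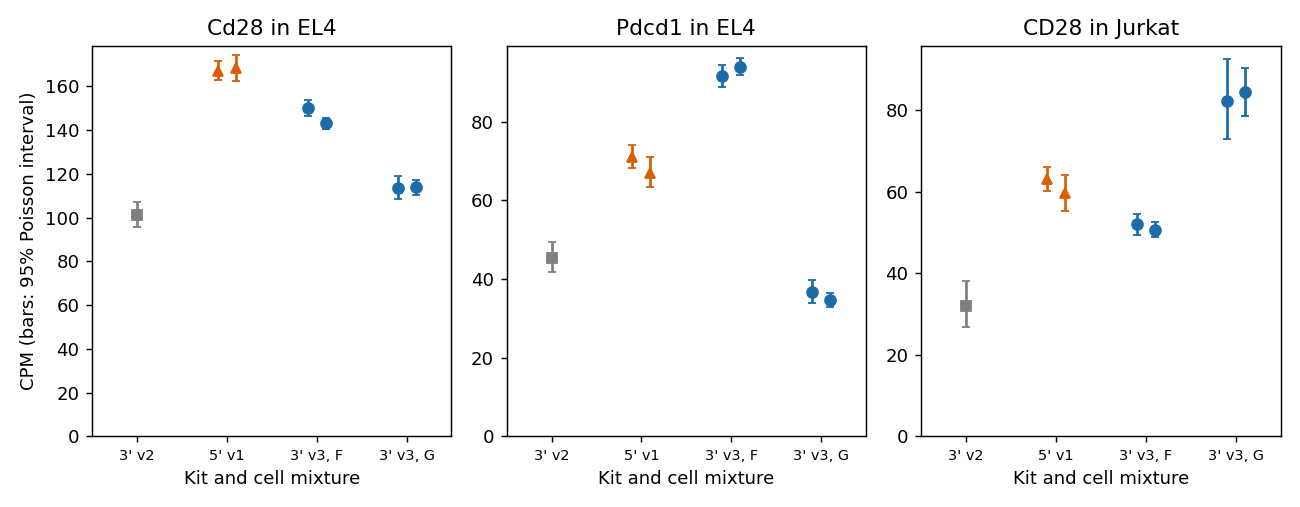
Level of Cd28 and Pdcd1 in EL4 and of CD28 in Jurkat, 1 point per library with its exact 95% Poisson interval (counting error only), by kit and, for 3′ v3, by cell mixture. Pdcd1 is at 91.6 and 94.0 CPM in mixture F and at 36.8 and 34.6 CPM in mixture G, with 5′ v1 between them at 71.0 and 67.1 CPM.

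Each mixture was also set against 5′ v1. Pdcd1 in EL4 was higher with 3′ v3 in mixture F (log2 fold change 0.55 ± 0.09, edgeR adjusted p = 0.00165) and lower in mixture G (-1.25 ± 0.08, adjusted p = 1.17e-06). Cd28 in EL4 did not pass in F (-0.08 ± 0.09, adjusted p = 0.480) and was lower in G (-0.85 ± 0.07, adjusted p = 7.20e-06). CD28 in Jurkat did not pass in F (-0.11 ± 0.10, adjusted p = 0.371) and was higher in G (0.26 ± 0.10, adjusted p = 0.0237). Of all genes 66.4% and 70.8% were called in EL4, 60.2% and 66.9% in IVA12 and 59.8% and 72.9% in Jurkat (F and G), so a call was common for any gene. Pdcd1 in IVA12, which passed the filter on low counts through 3′ v3 alone, was higher with 3′ v3 in both mixtures (4.06 ± 0.55 and 2.02 ± 0.59, edgeR adjusted p = 0.000106 and 0.00372). Each side of these tests is 1 cell mixture, so the p-values measure the spread between captures of a mixture, and kit and mixture cannot be told apart.

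Mixture G also held cells with more mitochondrial RNA in Jurkat: 51.9% and 55.8% of its cells had over 10% mitochondrial UMIs, against 3.17% and 0.622% in mixture F. In mixture G the CD28 level was 87.8 and 87.6 CPM in cells of at most 10% and 78.0 and 82.1 CPM in the others, beside 52.0 and 50.7 CPM over all Jurkat cells of mixture F. For EL4 the share of such cells was 3.23% and 10.4% in G and 7.80% and 5.42% in F.

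Within EL4, cells of over 10% mitochondrial UMIs had more Cd28 per UMI. The median over 7 libraries was 324 CPM in them and 140.3 CPM in the rest, higher in 7 of 7 libraries (mean log2 difference 1.3 ± 0.68, SD; two-sided exact permutation test by sign flips p = 0.0156, the smallest 7 libraries allow; 0.0625 after Benjamini-Hochberg adjustment over 6 tests). Pdcd1 had the same direction in 6 of 7 libraries, 211 against 64.0 CPM (exact permutation p = 0.0312, adjusted 0.0625). CD28 in Jurkat was higher in 4 of 6 libraries with at least 10 such cells (exact permutation p = 0.344, adjusted 0.453). None passed after adjustment. The EL4 cells of over 10% mitochondrial UMIs were also shallower on average than the rest in the 3′ v2 and 5′ v1 libraries. The same held in 3′ v3 replicates 1, 2 and 3. This split and the split by depth given next are therefore not independent.

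The cells of a library were also split by depth into 3 parts of equal size. Pdcd1 in EL4 had a median of 102 CPM in the shallowest part and 48.2 CPM in the deepest, lower in the deepest part in 6 of 7 libraries (two-sided exact permutation p = 0.0312, adjusted 0.0625). Cd28 in EL4 had medians of 136 and 145 CPM, although the median difference within libraries was -0.31 on the log2 scale (exact permutation p = 0.453, adjusted 0.453). CD28 in Jurkat had 57.2 and 65.2 CPM, with a median difference of -0.07 (exact permutation p = 0.438, adjusted 0.453). A total count per cell stands in both measures, so the split is not independent of the ratio.

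The receptors act through ligands on the partner cell and through kinases, phosphatases and transcription factors within the T cell, and lists of these genes were read beside them. The lists hold other receptors of the family, the TNF receptor costimulators, ligands, signalling partners and transcription factors, 82 mouse and 81 human genes. Between EL4 and IVA12, 52 were tested, 31 were higher in EL4 and 11 lower, 80.8% called against 77% of all genes, with a median log2 fold change of 0.61 against 0.00440. Between TALL-104 and Jurkat, 54 were tested, 32 were higher in TALL-104 and 7 lower, 72.2% called against 65.2%, with a median of 0.99 against -0.05. Here and in the lists below, as with the receptors, a gene of low level passes the filter through the line in which it is high. The counts, called shares and medians of the tested genes thus carry no weight by themselves.

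**Figure D5:**
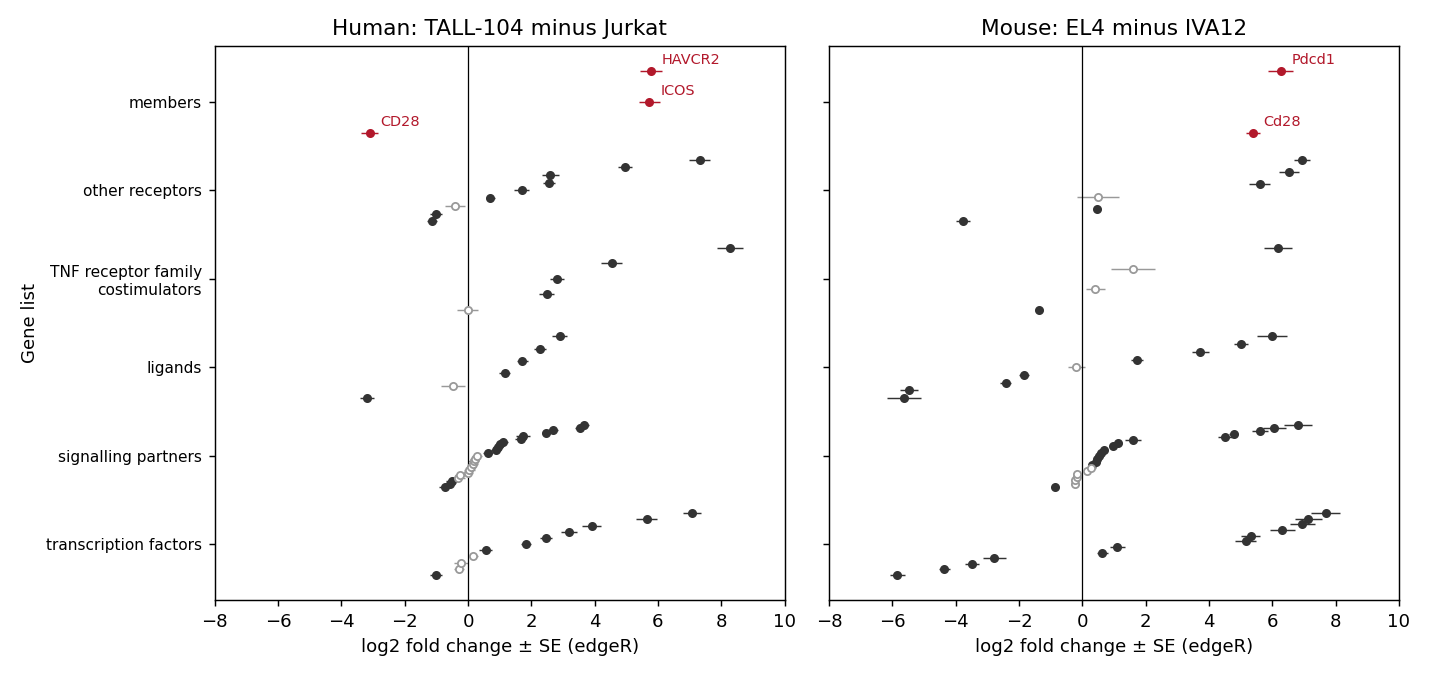
Log2 fold change ± SE between the lines of each species for every tested gene of the lists, 1 point per gene; filled points passed the edgeR test at an adjusted p of 0.05 and open points did not. CD28 lies at -3.10 and HAVCR2 and ICOS at 5.79 and 5.73 in the human lines, and Pdcd1 at 6.26 and Cd28 at 5.38 in the mouse lines.

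Of the other receptors, 6 were tested in mouse, 4 higher in EL4 and 1 lower (83.3% called, against 77% of all genes). Among all mouse genes 39% were higher in EL4 and 37.9% lower, and the direction of the list was not tested. Cd84 (6.93), Cd96 (6.52) and Btla (5.60, an inhibitory receptor related to PD1) were higher on the log2 scale, as was Cd2 (0.47), and Slamf6 (-3.76) was lower. In human 8 of 9 were called (88.9% against 65.2%), 6 of them higher in TALL-104, led by SLAMF1 (7.32), CD96 (4.96), CD244 (2.6, an NK and CD8 T cell receptor) and C10orf54 (2.55, the gene of VISTA), and CD2 (-1.14) and CD84 (-1.01) were lower. CD96, which shares a ligand with TIGIT, averaged 984 CPM in TALL-104 and 33.9 CPM in Jurkat. The most abundant of the list were Cd84 (29.7 CPM) and Cd96 (19.6 CPM) in EL4, Cd2 (14.6 CPM) and Slamf6 (9.68 CPM) in IVA12, CD2 (139 CPM) and CD84 (69.5 CPM) in Jurkat, and CD96 and CD2 (57.7 CPM) in TALL-104.

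Of the TNF receptor family, which gives costimulation beside CD28, TNFRSF18 (8.27), TNFRSF25 (4.54), TNFRSF14 (2.81) and CD27 (2.49) were higher in TALL-104 and TNFRSF4 did not pass (-0.01, edgeR adjusted p = 0.981). In mouse Tnfrsf8 was higher in EL4 (6.17) and Tnfrsf18 lower (-1.35), and Cd27 and Tnfrsf4 did not pass. The called share was 80% of 5 in human, against 65.2% of all genes, and 50% of 4 in mouse, against 77% of all genes. Cd27 (11.9 CPM) and Tnfrsf8 (7.72 CPM) led in EL4, Tnfrsf18 (7.85 CPM) and Cd27 (6.17 CPM) in IVA12, TNFRSF4 (14.7 CPM) and TNFRSF14 (10.4 CPM) in Jurkat, and TNFRSF14 (77.4 CPM) and TNFRSF18 (34.1 CPM) in TALL-104. TNFRSF9 was seen nowhere above 1 CPM on average in the 4 lines.

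Ligands were split in mouse, 4 higher and 4 lower of 9 (88.9% called, against 77% of all genes). Pdcd1lg2 (5.99), which encodes a ligand of PD1, and Cd48 (5.01), Lgals9 (3.73, a ligand of TIM3) and Tnfsf9 (1.73) were higher in EL4. Cd276 (-5.63), Pvrl2 (-5.47), Cd274 (-2.43) and Pvr (-1.85) were lower, and among them Cd274 encodes PD-L1 and averaged 18.7 CPM in IVA12 and 3.43 CPM in EL4. Lgals9 (179 CPM) and Cd48 (35.8 CPM) led in EL4, and Cd274 and Pvr (17.6 CPM) in IVA12. In human 5 of 6 were called (83.3% against 65.2% of all genes), of which 4 were higher in TALL-104, CD70 (2.90), CD48 (2.28), CD40LG (1.71) and CD58 (1.15), and LGALS9 (-3.19) was lower. CD48 (97.2 CPM) and LGALS9 (71.7 CPM) led in Jurkat, and CD48 (401 CPM) and CD40LG (63.5 CPM) in TALL-104. In the human lines CD80 and CD86, the genes of the CD28 ligands, averaged 0.0425 and 0.0292 CPM in Jurkat. In TALL-104 CD80 averaged 5.32 CPM with CD86 at 0.

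Signalling partners include the kinases and adaptors below CD28 and the phosphatases below PD1. In mouse 14 of 21 were higher in EL4, among them Trat1 (6.80), Lck (6.06) and Ptpn6 (4.78), the gene of SHP1, and only Grb2 (-0.85) was lower, 71.4% called against 77% of all genes. In human 11 of 23 were higher in TALL-104 and 3 lower (60.9% called against 65.2%), with CBLB (3.65), a ubiquitin ligase that raises the need for CD28, PIK3CD (3.55), INPP5D (2.67) and PTPN22 (2.48) at the top. PTPN11 (-0.73), the gene of SHP2, BAG6 (-0.56), which binds TIM3, and PTPN2 (-0.49) were lower. LCK did not pass (0.21, edgeR adjusted p = 0.221) and averaged 394 CPM in Jurkat and 437 CPM in TALL-104, the most abundant of the list in both, followed by SH2D1A (187 and 217 CPM). In EL4 Ptpn6 (229.7 CPM) and Lck (127 CPM) led, and in IVA12 Grb2 (116 CPM) and Ap2m1 (76.4 CPM).

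Of the transcription factors of T cell state, 12 of 12 tested were called in mouse, where 77% of all genes were, and 8 of 11 in human (72.7% against 65.2%). Ikzf2 (7.68), Tox (7.14), Tcf7 (6.95) and Maf (6.31) were higher in EL4, 8 of 12 in all, and Nr4a2 (-5.84), Prdm1 (-4.35), Irf4 (-3.49) and Nfatc1 (-2.78) were lower. In human MAF (7.08), TBX21 (5.64), PRDM1 (3.91) and EOMES (3.18) were the most raised of 7 higher in TALL-104, and TCF7 (-1.02) was lower. TOX, a factor of the exhausted T cell state, did not pass (0.17, edgeR adjusted p = 0.324) and averaged 80.3 CPM in Jurkat and 82.6 CPM in TALL-104. Tcf7 (482 CPM) and Ikzf2 (313 CPM) led in EL4, Irf4 (121 CPM) and Prdm1 (37.0 CPM) in IVA12, TCF7 (283 CPM) and IKZF2 (95.8 CPM) in Jurkat, and TCF7 (127 CPM) and BATF (88.0 CPM) in TALL-104. Every value in this and the preceding lists is a log2 difference unless given as CPM, and all named as higher or lower passed the edgeR test.

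Between kits, the pathway genes called were 21 of 62 in EL4 (33.9%, against 36.7% of all genes), 10 of 49 in IVA12 (20.4% against 9.66%), 8 of 61 in Jurkat (13.1% against 17.5%) and 4 of 54 in TALL-104 (7.41% against 4.32%). A gene of low level can pass the filter through the kit in which it is high, so these counts and shares carry no weight by themselves. Large fold changes of such genes can rest on few UMIs in the other kit. Differences are given as log2 fold changes of 3′ v3 over 5′ v1, and all named as higher or lower passed the edgeR test. In EL4, Tigit (-3.25 ± 0.63, adjusted p = 0.00776), the PD1 ligand gene Pdcd1lg2 (-2.45 ± 0.28, adjusted p = 0.00124), Tnfsf4 (-2.40), Trat1 (-1.77), Traf1 (-1.28), Tnfrsf8 (-1.66) and Nfatc1 (-2.51) were lower with 3′ v3. Cd160 (3.74), Pvr (0.78), Ptpn6 (1.70), Ppp2r1a (1.35), Tox (0.63) and Tcf7 (0.56) were higher. The summed B cell markers of EL4 stood at 9.46 to 21.7 CPM with 3′ v3 and 5.64 to 6.34 CPM with 5′ v1 (10 of 11 with UMIs in each), and of 7 tested Cd79a (3.22), Cd79b (2.80) and Ebf1 (3.88) passed and 4 did not, and their part in these values was not tested. In IVA12, Slamf1 (7.13), Slamf6 (1.26), Cd27 (6.77), Ptpn6 (1.97), Tox (5.47) and Ikzf2 (3.58) were higher with 3′ v3, and Cd80 (-3.31), Cd276 (-1.18) and Tnfrsf14 (-3.14) were lower. Of the 7 T cell markers, Cd3d (4.76), Cd3e (6.13) and Thy1 (3.51) were also higher there and 4 did not pass, from Cd2 at 0.087 to Cd5 at 2.84, and their part in these values was not tested. In Jurkat, TNFSF9 (3.77), CD48 (1.65), CD84 (1.43), SLAMF6 (1.12) and VAV1 (0.69) were higher and PTPN11 (-0.92) was lower. In TALL-104, EOMES (4.0), CD40LG (2.13) and CD2 (1.99) were higher and TNFRSF14 (-1.22) was lower.

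The genes most like each receptor were sought by Pearson r of log2(CPM + 1) over the 14 library by line sums of its species, as a description, since these points share lines and libraries. For Cd28 they were Ap1s2, Fam134b and Laptm4b (r = 0.997 each), and for Pdcd1 they were Cd3e, Cd3g and Abracl (r = 0.993 each). For CD28 they were CD1E (r = 0.988), AIG1 and GPC2, with CD1E at 392 CPM in Jurkat and 6.23 CPM in TALL-104. For ICOS they were VAMP8 (r = 0.996), NKG7 and S1PR4, of which NKG7 was used to name TALL-104 cells, and for HAVCR2 they were CDIP1, TCIRG1 and GEM (r = 0.993 each). With 2 lines per species, r mostly shows which line a gene is high in.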

How the data were processed

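Messenger RNA was counted in single cells of a mixture of 4 cell lines with 3 Chromium kits. The deposited matrices hold, for each barcode, whole-number UMI counts of every gene, without scaling. The authors downsampled the reads with seqtk, which levelled depth between libraries, by the cells richest in mRNA, but not between lines. They aligned and counted the reads with Cell Ranger 3.0.2 against a combined hg19 and mm10 reference. The deposited matrices keep all barcodes and pool no libraries, while the paper joined replicates of a method for its tests of differential expression. The reference was the one supplied as Cell Ranger 1.2.0, a version the submitters' processing notes also name. Of 8 listed libraries 7 were used.

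A barcode with at least 1000 UMIs and over 80% of them from 1 species was called EL4 if Lgals1, S100a6 and Perp together had at least 5 times the UMIs of Epcam, Cd24a, Ctss and Ckap4, IVA12 in the reverse case, TALL-104 if NKG7, CST7 and CD8A made up at least 0.1% of UMIs and Jurkat if under 0.02%. Counts were summed per library and line. Lines were compared with edgeR 4.0.16 (TMM, filterByExpr with a minimum count of 10, quasi-likelihood test, library as a block), kits without a block, with Benjamini-Hochberg adjustment over all genes tested and an adjusted p under 0.05. DESeq2 1.42.0 was an alternative. Intervals and limits cover counting error only.

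On simulated counts with 2-fold and 4-fold changes in 200 genes, the test recovered 97% and 100% (EL4 against IVA12), 90% and 100% (TALL-104 against Jurkat), and for kits 43% and 92% in EL4, 41% and 95% in IVA12, 23% and 86% in Jurkat and 4% and 53% in TALL-104, and for the line by kit terms 73% and 81% in mouse and 5% and 51% in human. The genes and lists were chosen with earlier results of these data known. From each list the text names called genes of largest change, up to 4 a direction per line comparison and up to 2 per kit comparison, and the 2 most abundant per line, some of which are not reported here; for each receptor with a mean of at least 5 CPM it names the 3 genes of highest Pearson r. Genes named outside that rule (PDCD1, Icos, Havcr2, Tigit, TNFRSF9, CD80, CD86, TOX, TNFRSF4 in the human comparison and Tnfrsf4 in the mouse comparison) were chosen after their values were seen. Replicates were numbered by accession, which pairs none of them. No annotation of these builds was used, so no gene locations or sequences are given.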

Additional observations from a re-analysis of the deposited data

Results flagged for a closer look

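Among the receptor genes, 4 results stood apart. In the 4 libraries of 3′ v3, 3 values lay far from the rest of their group: CTLA4 in Jurkat at 0.0336 CPM in replicate 3 (2 UMIs, the other libraries at 0), TIGIT in Jurkat at 0.0336 CPM in replicate 1 (1 UMI, the others at 0) and LAG3 in TALL-104 at 4.81 CPM in replicate 1 (6 UMIs, the others from 0.95 to 1.5 CPM). Chance sets apart about 1 in 20 groups of continuous values (19 groups were examined), but that rate does not hold for CTLA4 and TIGIT, since 1 library above 0 beside 3 at 0 is set apart by construction. All 3 values rest on at most 6 UMIs. The fourth is Pdcd1, whose difference between EL4 and IVA12 was larger with 5′ v1 than with 3′ v3 by 3.49 on the log2 scale, tested as a line by kit term. IVA12 had 0.167 and 0.0909 CPM with 5′ v1 and 0.598 to 2.73 CPM with 3′ v3, and the free RNA estimate in the same libraries was 0.160 and 0.0398 CPM and 0.776 to 1.21 CPM.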

How the results depend on the processing

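The differences of Cd28, Pdcd1, CD28, ICOS and HAVCR2 between lines kept their direction and their call under all 15 to 17 alternatives run for each. Counts of genes called moved more. Leaving out 1 library in turn gave 1063 to 4347 genes between kits in EL4, 18 to 846 in IVA12, 113 to 2156 in Jurkat and 9 to 628 in TALL-104, and 1633 to 4398 mouse and 2 to 206 human line by kit terms. A 5′ v1 replicate was the library left out at each of these lowest counts, and a single 5′ v1 library was then taken to vary like the others; 3′ v3 replicates 2 and 4 (686 and 769 in IVA12) and 3′ v3 replicate 1 (628 in TALL-104) also moved a count by over 1.5 times. With cells thinned to 1000 UMIs, which leaves fewer genes to test, the counts were 1483, 163, 427 and 105 for kits in EL4, IVA12, Jurkat and TALL-104, 4176 and 3937 between the mouse and human lines, and 799 and 41 for the line by kit terms. With only mixture F they were 7906, 7025, 8210 and 1303 for kits in the 4 lines, and with only mixture G 8210, 7711, 9434 and 2247. DESeq2 called 2002 genes between kits in IVA12 and 190 human line by kit terms. No filter on low counts gave 706 genes between kits in TALL-104 and 311 human terms, and cells of over 95% UMIs from 1 species gave 210 human terms. Between kits the sign turned for Pdcd1 in EL4 (-0.38 to 0.18 without 1 library, above 0 without 3′ v3 replicate 2 or 4, 0.081 thinned, 0.55 in mixture F), CD28 in Jurkat (-0.047 to 0.15 without 1 library, below 0 without 5′ v1 replicate 2, -0.11 in mixture F), HAVCR2 in TALL-104 (-0.81 to 0.13 without 1 library, above 0 without 5′ v1 replicate 1) and ICOS in TALL-104 (-0.11 with library totals, -0.14 to 0.41 without 1 library, -0.039 with at most 10% mitochondrial UMIs, -0.88 thinned, -0.055 with markers of at least 0.2%, -0.21 in mixture G). None of these passed the test except Pdcd1 in mixture F, and the cause was not tested. Library totals in place of TMM moved the median of all genes from -0.05 to -0.18 between the human lines, from -0.02 to -0.14 for the mouse terms and from -0.25 to -0.04 for the human terms, and the calls from 1798 higher and 2383 lower to 1326 and 3020 for the mouse terms, from 63 and 60 to 113 and 23 for the human terms, and from 211 and 175 to 129 and 187 between kits in TALL-104. Without the library block the line comparisons called 6944 and 5202 genes. The alternative with TALL-104 markers of at least 1% was not run, since no library held 10 such cells. The line comparisons were paired by library. Between kits, no paired analysis was possible because no cell mixture was shared between kits, and the replicate numbers were given in accession order.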

Other observations

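The T cell lines differed in genes beside the receptors that the report has not placed. In TALL-104 the cytotoxic genes GZMA and PRF1 were 5.72 and 6.00 higher on the log2 scale than in Jurkat (edgeR adjusted p = 2.21e-19 and 2.64e-19), and CD7 was 2.59 higher, while LEF1 (-2.82) and TAL1 (-4.17) were lower. In EL4, the granzyme genes Gzma and Gzmb averaged 23.6 and 10.3 CPM and were 5.53 and 7.31 higher than in IVA12, with Cd8a and Klrd1 at 0 UMIs in EL4. CD3D did not pass between the human lines (-0.12, adjusted p = 0.489), nor did CD3G (0.18, adjusted p = 0.338).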
